A study of Homo sapiens with 12 samples.

Results

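The genes described here are 34 members of the cellular protein-folding system: chaperones, folding enzymes and stress sensors of the endoplasmic reticulum (ER), together with the cytosolic and mitochondrial heat shock proteins. They were taken by gene symbol from a deposited table of 29744 gene rows, by a rule that uses no measured value. The list itself was chosen with earlier results of these data known, so its choice was not independent of them. All 34 had a row and all 34 passed the filter on low counts, so all 34 are among the 14417 genes tested; the lowest count of any member in any library was 117, for SDF2L1. The RNA came from 4 human breast lines of the MCF10A series, each represented by 3 replicate libraries (n = 3), 12 libraries in all. A10 is MCF10A itself, a spontaneously immortalised mammary epithelial line that forms no tumours and serves as the reference. NeoT (MCFNeoT) is MCF10A carrying a mutant HRAS, listed by the submitters as benign hyperplasia. T1 (MCFT1), listed as atypical hyperplasia, and CA1 (MCFCA1), listed as invasive, were later derived from HRAS-carrying cells grown as xenografts. The submitters class all 4 as triple-negative. No treatment or stress is listed for any group in the sources used here. Each stage is thus 1 line, so a difference between lines cannot be told apart from a difference between the particular isolates. Growth medium, density and passage are not given in the sources used here, and the replicates are called biological with no further detail.

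Proteins that enter the secretory pathway fold in the ER with the help of the HSP70 protein BiP (HSPA5), the HSP90 protein GRP94 (HSP90B1), the lectins calnexin and calreticulin, and the disulfide isomerases. When unfolded protein accumulates there, the sensors IRE1 (ERN1), PERK (EIF2AK3) and ATF6 start the unfolded protein response, which raises transcription of these chaperones and of the machinery that returns misfolded protein to the cytosol for degradation (ER-associated degradation, ERAD). The cytosol has a separate system, the heat shock response, in which the transcription factor HSF1 binds heat shock elements and drives the inducible HSP70, HSP90, HSP110, HSP40 and small heat shock genes. IRE1 signals by splicing XBP1 mRNA, PERK by phosphorylating a translation factor, ATF6 by cleavage and HSF1 by trimer formation. The counts are per gene and measure mRNA only, so none of those signalling steps was measured.

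The factors of the 2 responses bind different DNA elements, and the matches to them near the members' starts are shown so that each gene can be read with its own letters. Windows from 250 bases before to 50 bases after the transcription start (RefSeq, GRCh38.p14) were present for 32 of the 34 genes, PDIA3 and HSF1 being the others. Each was searched on both strands for 4 exact motifs. The ER stress response element (ERSE, CCAAT and CCACG with any 9 bases between them), the site of ATF6 together with the CCAAT-binding factor NF-Y, was found in 7 of the 32 members, 21.9%, against 0.0916% of all 27305 genes in the table (25 genes, these 7 among them). Below, the fixed letters are in capitals and each site is written 5′ to 3′ on the strand that matches.
HSPA5: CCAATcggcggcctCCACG
HSP90B1, first site: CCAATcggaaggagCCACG
HSP90B1, second site: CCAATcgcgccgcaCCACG
CALR: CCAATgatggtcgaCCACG
CANX: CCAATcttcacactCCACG
PDIA6: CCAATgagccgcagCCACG
CRELD2: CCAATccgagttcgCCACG
XBP1: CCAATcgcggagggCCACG

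The shorter element ERSE-II (ATTGG and CCACG with any 1 base between them) was found in SDF2L1, HERPUD1 and HYOU1, 9.38% of the members against 0.0696% of all genes. HYOU1 held it at 2 places with the same letters.
HERPUD1: ATTGGgCCACG
HYOU1: ATTGGaCCACG
SDF2L1: ATTGGtCCACG

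HYOU1 was also the only member with an exact match to the core of the unfolded protein response element (UPRE, TGACGTGG), 3.12% of the members against 0.927% of all genes; on the opposite strand it overlapped the more distant of the ERSE-II matches. The heat shock element searched was 3 alternating units without a mismatch, GAA, TTC and GAA with any 2 bases between neighbours. It was found in HSPA8, HSP90AA1, HSP90AB1 and HSPD1, 12.5% of the members against 0.608% of all genes.
HSPA8, distal site: GAAagTTCcaGAA
HSPA8, proximal site: GAAccTTCcaGAA
HSP90AA1: GAAccTTCcgGAA
HSP90AB1, distal site: GAAtcTTCcaGAA
HSP90AB1, proximal site: GAAgcTTCcaGAA
HSPD1: GAAagTTCtgGAA

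The HSPD1 site lies before the inner of the 2 starts listed for that gene, and overlapped a second match on the opposite strand. The sites of CANX, PDIA6, HSPA8, HSP90AA1 and HSP90AB1 likewise belong to starts inside the gene's span, not at its outer end. No member's window held both an ER element and the heat shock element. A match describes letters and is not evidence of binding, and the absence of a match says only that those exact letters are not in the window. The 250 bases before the start are printed for 1 gene each with an ERSE, an ERSE-II and a heat shock element, with the match in capitals on the gene's own strand. They are HSPA5 (chr9:125241344-125241593, minus strand), HERPUD1 (chr16:56931892-56932141, plus strand) and HSP90AA1 (chr14:102087045-102087294, minus strand).
HSPA5: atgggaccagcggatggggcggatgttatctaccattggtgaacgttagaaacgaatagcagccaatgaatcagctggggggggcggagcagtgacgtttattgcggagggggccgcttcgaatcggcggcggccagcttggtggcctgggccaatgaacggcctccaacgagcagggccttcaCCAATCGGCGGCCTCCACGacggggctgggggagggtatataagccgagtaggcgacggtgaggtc
HERPUD1: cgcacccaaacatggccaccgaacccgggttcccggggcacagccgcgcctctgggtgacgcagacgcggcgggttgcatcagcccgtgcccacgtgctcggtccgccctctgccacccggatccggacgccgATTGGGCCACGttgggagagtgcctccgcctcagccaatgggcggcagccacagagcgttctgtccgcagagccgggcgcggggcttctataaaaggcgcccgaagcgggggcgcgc
HSP90AA1: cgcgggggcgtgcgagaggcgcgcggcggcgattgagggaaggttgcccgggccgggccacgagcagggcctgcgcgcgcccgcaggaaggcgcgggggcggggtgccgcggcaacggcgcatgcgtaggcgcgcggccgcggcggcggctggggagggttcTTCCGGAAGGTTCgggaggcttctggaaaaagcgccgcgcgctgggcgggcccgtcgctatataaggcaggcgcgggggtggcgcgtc

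Libraries held 18032399 to 35730423 counts, with 12663 to 13906 genes at 10 counts or more. T1 replicate 1 carried 7.76% cytoplasmic rRNA counts, against 0.954% to 2.18% in the other 11. NeoT replicates 3 and 1 stood apart by transcript length, in opposite directions: the median log2 deviation of genes under 1000 bases minus that of genes over 4000 bases was -0.23 and 0.219 there, against -0.0913 to 0.114 elsewhere. The HRAS range was 61.7 to 69.8 CPM for A10, 147 to 170 for T1, 218 to 261 for NeoT and 289 to 312 for CA1. The epithelial markers were uneven in NeoT, where 8 of them summed to 786 to 906 CPM, against 4520 to 4890 in A10, 5380 to 5650 in T1 and 7560 to 8260 in CA1, and TP63 had 0 counts in NeoT. KRT5 made up 3350 CPM of the A10 sum and stood at 40.2 CPM in NeoT, CDH1 at 313 and 0.691, KRT18 at 350 and 329, and KRT8 at 147 and 473. The 4 mesenchymal markers summed to 17100 to 20800 CPM in NeoT, 1940 to 2150 in A10, 172 to 182 in T1 and 400 to 425 in CA1, where DCN had 0 counts. Of the leukocyte markers, PTPRC and CD3E had 0 counts in every line, and CD68 stood at no more than 8.62 CPM in A10 and 7.29 in T1, at 80.9 to 87.4 in CA1 and at 152 to 164 in NeoT. The 4 adipocyte markers summed to 35.1 to 46.6 CPM in NeoT and to at most 6.39 elsewhere, with ADIPOQ at 0 counts in all lines and FABP4 in T1. The 4 endothelial markers summed to at most 10.3 CPM in A10, 3.49 in NeoT (CDH5 at 0) and 25.0 in CA1 (KDR at 0), and to 82.7 to 90.5 in T1. Of 4 markers of professional secretory cells 2 had a row: AMY2A was at 0, and SDC1 stood at 42.8 to 52.9 CPM in NeoT, 588 to 653 in T1, 596 to 673 in A10 and 805 to 911 in CA1. These marker differences move with every NeoT comparison below, and their part in it was not tested.

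In what follows, levels are CPM (a gene's counts scaled to a common library total) adjusted by TMM, a normalisation that assumes most genes do not change, and are mean ± SD over 3 libraries where a spread is given. The test was edgeR's quasi-likelihood test, and genes with p under 0.05 after Benjamini-Hochberg adjustment over all 14417 are those called. Folds are fitted values, and CPM, which are not divided by length, are compared between lines for the same gene or the same sum of genes. In bulk RNA, fewer cells with a transcript and less of it per cell cannot be told apart. All 34 members differed among the 4 lines, where 89.8% of all genes tested did. The weakest evidence was for ATF6 (adjusted p = 0.00961).

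Most of the ER genes were higher and most of the cytosolic heat shock genes lower in NeoT than in A10. Of 34 members, 17 were higher and 12 lower in NeoT than in A10, against a background of 70.4% of all genes called (33.7% higher, 36.7% lower). The ER genes made up most of the rises and the cytosolic heat shock genes most of the falls. Among 9 ER HSP70 and HSP90 chaperones and cochaperones 5 were higher and 1 lower, with a median log2 fold change of 0.50. Among 5 lectin chaperones and disulfide isomerases 3 were higher and 1 lower (median 0.46), and among 4 ERAD genes 3 were higher and 1 lower (median 0.62). Of the 4 sensors and transcription factors of the ER response, 3 were higher and 1 lower (median 0.65). Of 10 cytosolic heat shock genes, 7 were lower and 2 higher, with a median of -1.14. The median over all genes tested was -0.0419. At least 2-fold differences with a call, which 15.2% of all genes had upward and 19.1% downward, 34.3% in all, were found for 4 members upward (DNAJB9, HERPUD1, HSP90B1 and XBP1) and 9 downward (HSPA1A, HSPH1, HSPB1, BAG3, EDEM1, HSP90AA1, HSPE1, HSPA1B and DNAJB1).

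In T1, 9 members were higher and 14 lower than in A10, with 26.0% of all genes called higher and 25.9% lower, 51.9% in all. The only member past 2-fold was HSPA1A, 2.05-fold lower, where 9.45% of all genes were called and at least 2-fold higher and 9.39% lower, 18.8% in all. In CA1 18 members were higher and 11 lower than in A10, with 34.4% of all genes called higher and 36.5% lower, 70.9% in all. DNAJB9 (higher) and SDF2L1 (lower) passed 2-fold, where 16.2% of all genes did upward and 17.9% downward, 34.1% in all. The member median was -0.11 in T1 and 0.16 in CA1, and that of all genes was -0.0066 and -0.023. All 3 comparisons use the same A10 libraries, so they are not independent of each other. Scaling by library totals alone moved the median of all genes by more than 0.1, to -0.27 for NeoT, -0.122 for T1 and -0.236 for CA1 against A10. The share of higher genes among all those called was then 35.4%, 38.0% and 37.0%, where it was 47.9%, 50.2% and 48.5% with TMM. Under that scaling the members split 16 higher and 13 lower in NeoT, 6 and 18 in T1, and 12 and 14 in CA1. Calls against A10 that were lost with library totals were HSF1 in NeoT, CANX, EIF2AK3 and SEL1L in T1, and DNAJB11, DNAJC3, HSP90AA1, HSPD1, CANX and PDIA6 in CA1. The values of CANX and PDIA6 in CA1 were then below 0 and not called, and PDIA3 in CA1, not called with TMM, was called lower (log2 -0.21, adjusted p = 0.00396). The 9 ER HSP70 and HSP90 genes then split 3 higher and 3 lower in CA1, where 5 were higher and 2 lower with TMM, and the 5 lectin and isomerase genes had a CA1 median of -0.21 in place of 0.00579. In NeoT the roles kept the sign of their medians, with the cytosolic genes at 1 higher and 7 lower.

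**Figure D1:**
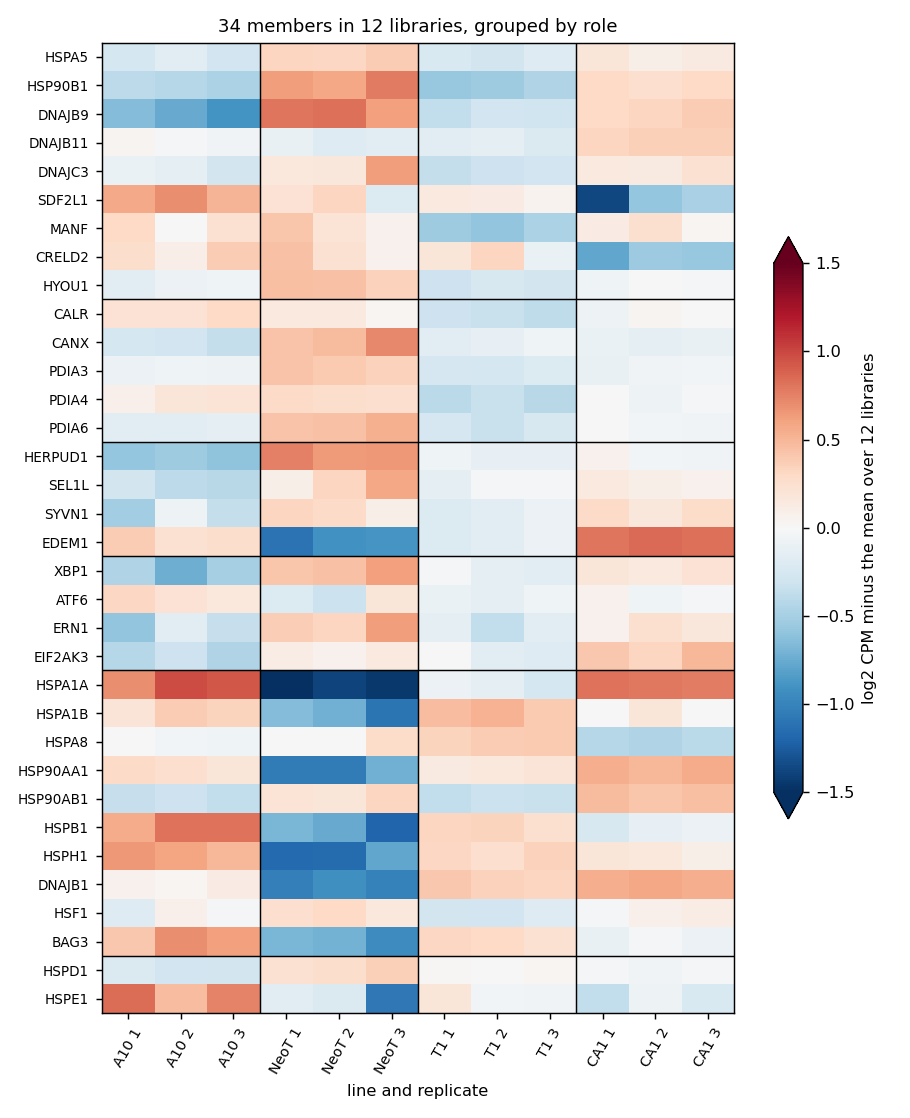
Each row is 1 of the 34 genes, grouped by role, and each column 1 of the 12 libraries; colour is the log2 CPM minus its mean over the 12 libraries. NeoT columns are red in most ER rows and blue in 7 of 10 cytosolic heat shock rows, while EDEM1 is an ER row that is blue in all 3 NeoT columns and SDF2L1 is reddest in A10.

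**Figure D2:**
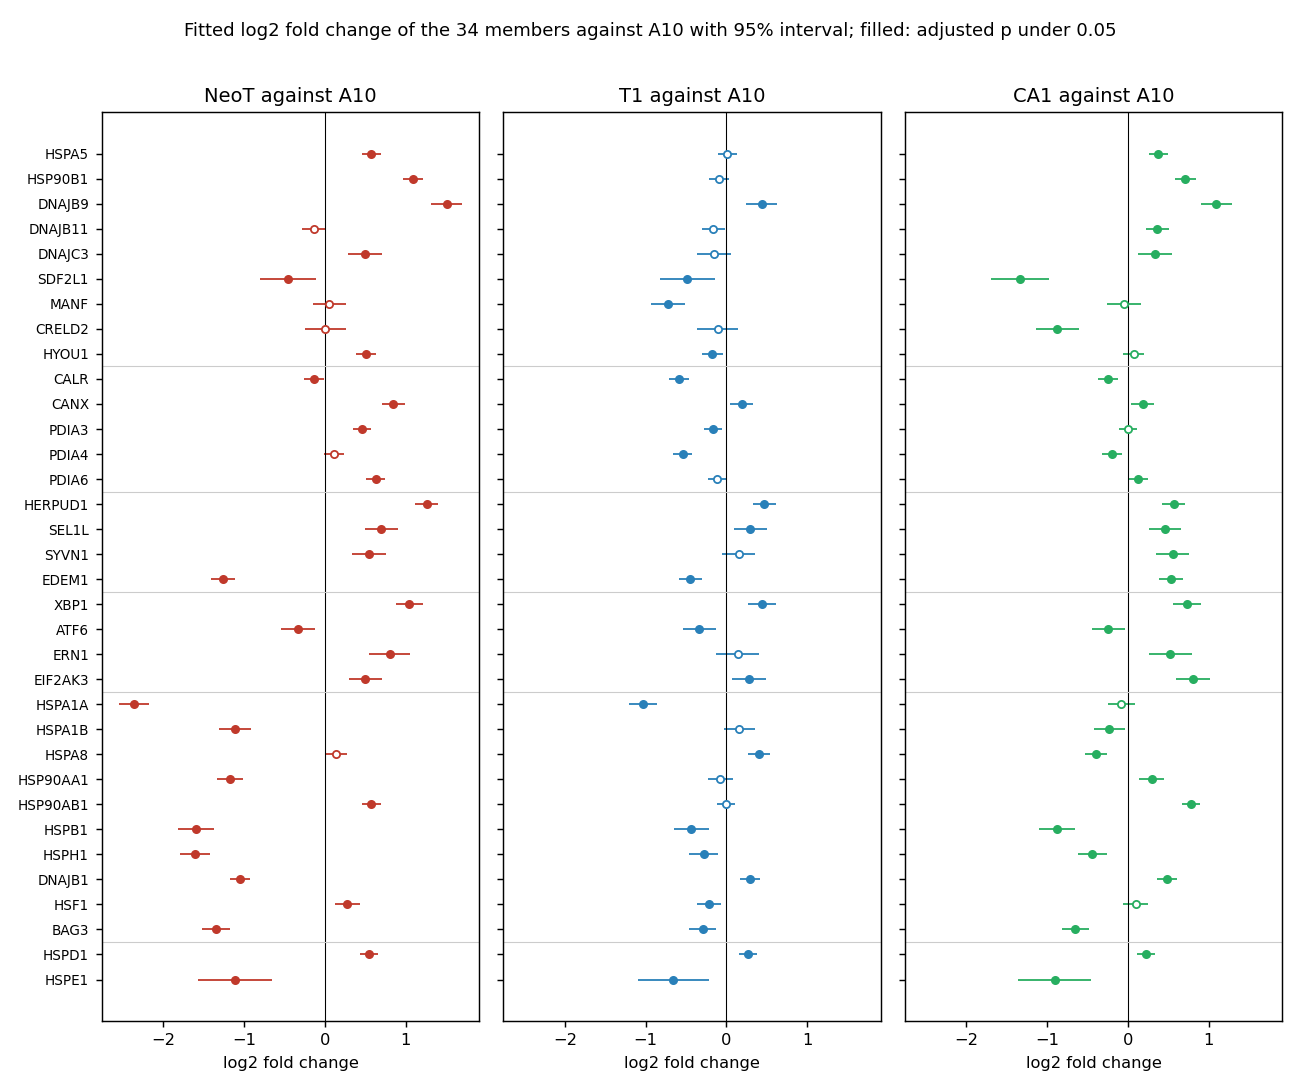
Points are fitted log2 fold changes against A10 with their 95% intervals, filled where the adjusted p was under 0.05, with grey lines between the roles in the same order. NeoT has the widest spread, from -2.36 (HSPA1A) to 1.51 (DNAJB9), and T1 the narrowest, from -1.03 to 0.47.

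The heat map of all libraries and the plot of fold changes show the same contrast by library and by line. Replicates of a line had similar colours in most rows, and the coefficient of variation had a member median of 2.99% in CA1, 3.28% in T1, 5.40% in A10 and 8.43% in NeoT. The median of all genes at a mean of 10 CPM or more was 5.41%, 5.36%, 6.42% and 10.4%, also highest in NeoT. The largest among the members were 31.2% for HSPE1 in NeoT and 29.9% for SDF2L1 in CA1. Without both T1 replicate 1 and NeoT replicate 3, the members called were 18 higher and 10 lower in NeoT, 8 and 15 in T1, and 18 and 11 in CA1, all against A10. Of all 14648 genes then tested, 4948 were higher and 5401 lower in NeoT, 3872 and 4014 in T1, and 5230 and 5622 in CA1. The member calls lost were those of CALR (adjusted p = 0.175) and SDF2L1 (adjusted p = 0.0637) in NeoT and EIF2AK3 in T1 (adjusted p = 0.0961), and, between NeoT and CA1, SEL1L (adjusted p = 0.146). Leaving out NeoT replicate 1 alone gave 18 members higher and 12 lower in NeoT, with 4703 and 5211 of all 14713 genes tested. Of the 34 members, 17 had their highest mean in NeoT, 8 in A10, 7 in CA1 and 2 in T1. The lowest mean was in T1 for 12, in A10 for 10, in NeoT for 9 and in CA1 for 3.

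Of the ER HSP70 and HSP90 chaperones and cochaperones, HSPA5, HSP90B1 and DNAJB9 were highest in NeoT and next in CA1, while SDF2L1 and CRELD2 were lowest in CA1. HSPA5, which encodes BiP, the HSP70 chaperone of the ER lumen, lies on chromosome 9, 125234853 to 125241343 (GRCh38.p14, as for all positions). It stood at 561, 604 and 552 CPM in A10, 843, 838 and 879 in NeoT, 578, 557 and 592 in T1, and 766, 720.2 and 740.2 in CA1. All NeoT libraries were above all CA1 libraries, and those above all of T1 and A10, which overlapped. HSPA5 was 1.49-fold higher in NeoT than in A10 (log2 0.58, SE 0.0564, adjusted p = 3.69e-08) and 1.3-fold higher in CA1 (log2 0.37, SE 0.0563, adjusted p = 9.63e-06). Its difference between T1 and A10 was 0.01 on the log2 scale, with a 95% interval of -0.109 to 0.127.

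HSP90B1 encodes GRP94, the HSP90 chaperone of the ER lumen (chromosome 12, 103930410 to 103947926). Its levels were 595, 582 and 562 CPM in A10, 1201, 1167 and 1337 in NeoT, 525, 538 and 569.5 in T1, and 962, 929.8 and 956 in CA1. The order of lines was that of HSPA5, with NeoT highest, CA1 next, and A10 and T1 overlapping. It was 2.13-fold higher in NeoT (log2 1.09, SE 0.0608, adjusted p = 1.18e-11) and 1.64-fold higher in CA1 (log2 0.71, SE 0.0604, adjusted p = 5.33e-09) than in A10. A pseudogene row, HSP90B2P, shares 17.01% of the 31-base words of its longest transcript; it stood at no more than 0.0802 CPM on average in any line.

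DNAJB9 (ERdj4), a J-domain cochaperone that delivers clients to BiP, had the largest rise of the 34 genes in NeoT. It measured 19.1, 17.8 and 16.1 CPM in A10, 52.2, 53.2 and 46.0 in NeoT, 23.3, 24.5 and 24.4 in T1, and 36.8, 37.6 and 39.1 in CA1. Libraries of the 4 lines did not overlap, and the order was NeoT, CA1, T1 and A10, each step called. Against A10 it was 2.85-fold higher in NeoT (log2 1.51, SE 0.0913, adjusted p = 3.94e-11), 2.13-fold in CA1 (adjusted p = 4.31e-09) and 1.36-fold in T1 (adjusted p = 0.00055).

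SDF2L1, an ER lumen protein that works with the J-domain cochaperones, ran the other way. Its libraries stood at 25.2, 27.4 and 24.3 CPM in A10, 19.7, 21.2 and 14.7 in NeoT, 18.9, 18.6 and 17.6 in T1, and 6.59, 11.4 and 12.1 in CA1. All A10 libraries were above those of the other lines and all CA1 libraries below them, with NeoT and T1 overlapping. It was 2.53-fold lower in CA1 than in A10 (log2 -1.34, SE 0.172, adjusted p = 1.74e-06). The smaller falls in NeoT (log2 -0.46, adjusted p = 0.0186) and T1 (log2 -0.48, adjusted p = 0.0193) were not called without A10 replicate 2 (highest adjusted p = 0.0633 and 0.0706), the T1 one also not without T1 replicate 3.

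The other 5 genes of this role differed by less than 2-fold from A10. HYOU1, an ER HSP70 relative that acts as a nucleotide exchange factor for BiP, stood at 136 ± 4.53 CPM for A10, 193 ± 7.76 for NeoT, 120.4 ± 3.07 for T1 and 142 ± 2.64 for CA1, and was higher in NeoT than in A10 (adjusted p = 4.07e-07). Its small fall in T1 (log2 -0.17, adjusted p = 0.0214) was lost without any 1 of A10 replicates 2 and 3 and T1 replicates 1 and 3. DNAJC3 (p58IPK), a BiP cochaperone, stood at 89.2 ± 5.94 CPM for A10, 126 ± 24.5 for NeoT, 80.3 ± 1.72 for T1 and 113 ± 3.89 for CA1, higher in NeoT and CA1 than in A10, the CA1 call being lost with library totals (log2 0.122, adjusted p = 0.317). DNAJB11 (ERdj3) was highest in CA1, at 56.1 ± 1.83 CPM for A10, 51.0 ± 1.46 for NeoT, 50.2 ± 1.24 for T1 and 72.2 ± 0.877 for CA1, and its CA1 call against A10 was likewise lost (log2 0.15, adjusted p = 0.0787). The secreted ER protein MANF was lowest in T1 (28.1 ± 1.15 CPM, 1.64-fold under A10, adjusted p = 7.86e-06) and stood between 44.7 and 48.0 CPM in the other lines. CRELD2, another ER stress-inducible protein, was lowest in CA1 (15.2 ± 1.30 CPM, 1.83-fold under A10, adjusted p = 6.58e-06) and at 26.0 to 28.1 CPM in the others. SDF2L1 and CRELD2, the members lower in CA1 than in every other line among these 9, both hold an ER element in the windows printed above, as do HSPA5 and HSP90B1, which were higher in CA1 than in A10.

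Summed over the 9 genes, the level was 2604 ± 115 CPM in NeoT, 2126 ± 31.5 in CA1, 1550 ± 37.8 in A10 and 1468 ± 32.8 in T1. Between the derived lines, 6 of the 9 were lower in T1 than in NeoT and 0 higher, where 32.4% and 35.0% of all genes were called lower and higher. From T1 to CA1, 7 were higher and 2 lower, with 30.4% and 31.9% of all genes.

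Calnexin and calreticulin, the lectin chaperones that hold monoglucosylated glycoproteins, differed in direction against A10, though both were lower in T1 than in NeoT (log2 -0.66 for CANX and -0.45 for CALR, adjusted p = 7.25e-08 and 1.48e-06). CANX, the membrane-bound lectin, stood at 897 ± 28.0 CPM for A10, 1615 ± 177 for NeoT, 1021 ± 35.9 for T1 and 1019 ± 17.8 for CA1. NeoT libraries were all above the rest, and the fold over A10 was 1.8 (log2 0.85, SE 0.0675, adjusted p = 2.03e-09). The 1.14-fold rises in T1 and CA1 rested on the choice of libraries: that in T1 (adjusted p = 0.0262) was lost without any 1 of A10 replicates 2 and 3 and T1 replicates 2 and 3, and that in CA1 (adjusted p = 0.0206) without A10 replicate 3 or CA1 replicate 1 or 3. With library totals the values were 0.072 in T1 and -0.0288 in CA1, neither of them called. CALR, the soluble lectin, was highest in A10, at 647 ± 20.1 CPM for A10, 590.2 ± 29.1 for NeoT, 431 ± 10.4 for T1 and 544 ± 22.8 for CA1. It was 1.5-fold lower in T1 (log2 -0.58, SE 0.0579, adjusted p = 9.58e-08) and 1.19-fold lower in CA1 (adjusted p = 0.000807). Its difference in NeoT was at the threshold (log2 -0.13, adjusted p = 0.0494), and the call was lost in 9 of the 12 fits that left out 1 library, all but those without A10 replicate 1 or NeoT replicate 1 or 2.

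The disulfide isomerases form and rearrange the disulfide bonds of secretory proteins, and all 3 members were lowest in T1. PDIA3 (ERp57), the partner of the lectins, stood at 452 ± 4.55 CPM for A10, 624 ± 18.6 for NeoT, 404 ± 9.48 for T1 and 454 ± 10.4 for CA1. PDIA6 (P5) stood at 289.7 ± 2.66 CPM for A10, 448 ± 17.1 for NeoT, 267 ± 9.26 for T1 and 317 ± 4.88 for CA1, and PDIA4 (ERp72) at 241 ± 11.7 CPM for A10, 260.5 ± 3.58 for NeoT, 166 ± 4.89 for T1 and 210.5 ± 5.31 for CA1. PDIA3 and PDIA6 were higher in NeoT than in A10 by 1.38- and 1.55-fold (adjusted p = 2.97e-07 and 8.38e-09), while PDIA4 had a log2 difference of 0.11 with an interval of -0.00988 to 0.234. PDIA4 was 1.46-fold lower in T1 (adjusted p = 2.75e-07), and PDIA3 1.12-fold lower (adjusted p = 0.0135, 0.0582 without T1 replicate 2). For PDIA6 in CA1 the 1.09-fold rise (adjusted p = 0.0443) was lost in 10 of the 12 fits that left out 1 library, all but those without NeoT replicate 1 or 3 and was -0.0832 on the log2 scale with library totals. PDIA3 and PDIA6 share 43.33% and 36.76% of their 31-base words with other rows, mainly the pseudogene PDIA3P1 and the overlapping gene ATP6V1C2, which stood at no more than 2.33 and 2.84 CPM on average in any line.

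Of the sensors and XBP1, all but ATF6 were higher in NeoT and CA1 than in A10. XBP1, the transcription factor whose mRNA IRE1 splices, lies on chromosome 22, 28794560 to 28800569. Its gene count, which cannot separate spliced from unspliced mRNA, was 85.8, 70.3 and 82.9 CPM in A10, 156, 158 and 179.8 in NeoT, 115, 105 and 104 in T1, and 133, 129 and 136 in CA1. Libraries of the 4 lines did not overlap, and the order NeoT, CA1, T1, A10 was the same as for DNAJB9. It was 2.06-fold higher in NeoT (log2 1.04, SE 0.0809, adjusted p = 1.37e-09), 1.66-fold in CA1 and 1.36-fold in T1 than in A10 (adjusted p = 1.95e-07 and 0.000152).

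ERN1, which encodes IRE1, stood at 12.3, 16.5 and 14.5 CPM in A10, 23.8, 23.1 and 28.5 in NeoT, 16.6, 14.3 and 16.5 in T1, and 19.4, 21.8 and 20.8 in CA1. NeoT and CA1 libraries were above those of A10 and T1, which overlapped. It was 1.74-fold higher in NeoT (log2 0.80, SE 0.124, adjusted p = 1.29e-05) and 1.44-fold in CA1 (adjusted p = 0.00102).

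EIF2AK3, which encodes PERK, was highest in CA1 instead, with 14.5, 15.8 and 14.3 CPM in A10, 21.1, 20.4 and 21.6 in NeoT, 19.4, 17.5 and 17.1 in T1, and 25.8, 24.4 and 27.6 in CA1. CA1 libraries were above all others and A10 libraries below all others. It was 1.75-fold higher in CA1 (log2 0.80, SE 0.0989, adjusted p = 8e-07) and 1.42-fold in NeoT (log2 0.50, SE 0.0997, adjusted p = 0.000199). The 1.21-fold rise in T1 (adjusted p = 0.0261) was lost when replicate 1 or 3 of A10 or replicate 1 of T1 was left out, and with library totals (adjusted p = 0.207). CA1 exceeded NeoT (adjusted p = 0.0116), with 0.0571 without CA1 replicate 3.

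ATF6, the sensor that is cut to a transcription factor and whose sites include the elements above, was highest in A10. It stood at 91.9, 86.4 and 82.8 CPM in A10, 64.5, 59.5 and 84.0 in NeoT, 69.0, 66.9 and 70.8 in T1, and 77.3, 70.7 and 73.1 in CA1. NeoT replicate 3 lay among the A10 libraries, while the other derived libraries lay below all of A10. Against A10 it was lower in NeoT (log2 -0.33, SE 0.0982, adjusted p = 0.00582), in T1 (log2 -0.34, SE 0.0975, adjusted p = 0.00711) and in CA1 (log2 -0.24, SE 0.0979, adjusted p = 0.0349). The CA1 call was lost without A10 replicate 1 or 2 or CA1 replicate 2 or 3 (highest adjusted p = 0.119).

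ERAD genes rose in CA1 in all 4 cases, and in NeoT in all but EDEM1. HERPUD1 (HERP), an ER membrane protein that assembles the degradation complex, lies on chromosome 16, 56932142 to 56944864. Its libraries read 44.9, 46.6 and 44.4 CPM in A10, 114, 105 and 106 in NeoT, 64.2, 62.1 and 61.9 in T1, and 70.7, 65.8 and 65.0 in CA1. NeoT stood above CA1 and T1, whose difference was not called, and A10 was below all. HERPUD1 was 2.39-fold higher in NeoT (log2 1.26, SE 0.0684, adjusted p = 8.26e-12), 1.48-fold in CA1 and 1.38-fold in T1 (adjusted p = 6.48e-07 and 1.19e-05).

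EDEM1, which directs terminally misfolded glycoproteins to degradation, departed from the other genes of its role. Its levels were 158, 142 and 145 CPM in A10, 56.0, 64.3 and 65.3 in NeoT, 105, 108 and 114 in T1, and 211, 217 and 214 in CA1. The order was CA1, A10, T1 and NeoT with no overlap between lines. It was 2.4-fold lower in NeoT (log2 -1.26, SE 0.0718, adjusted p = 1.62e-11) and 1.36-fold lower in T1 than in A10, and 1.45-fold higher in CA1 (adjusted p = 2.88e-05 and 1.75e-06). CA1 exceeded NeoT 3.47-fold (adjusted p = 7.74e-14), the second largest difference between those lines among the 34 genes after HSPA1A. The HSPA1A value depends on how counts are divided with HSPA1B. Summed, that pair was 2.8-fold higher in CA1 than in NeoT (adjusted p = 3.8e-12).

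SEL1L and SYVN1 encode the scaffold and the ubiquitin ligase (HRD1) of the main ERAD complex. SEL1L stood at 64.7 ± 3.63 CPM for A10, 105 ± 18.3 for NeoT, 79.5 ± 3.30 for T1 and 89.0 ± 2.59 for CA1, and SYVN1 at 47.4 ± 7.35 CPM for A10, 68.9 ± 5.89 for NeoT, 52.6 ± 2.18 for T1 and 69.5 ± 2.97 for CA1. Both were higher than A10 in NeoT (1.63- and 1.46-fold, adjusted p = 2.96e-06 and 6.75e-05) and in CA1 (1.37- and 1.47-fold, adjusted p = 0.000324 and 5.59e-05). The rise of SEL1L in T1 (adjusted p = 0.0141) was lost without A10 replicate 3 or T1 replicate 2, and with library totals (adjusted p = 0.162). SEL1L was also lower in CA1 than in NeoT (log2 -0.24, adjusted p = 0.0325), a call that was lost without NeoT replicate 2 or 3 or any 1 CA1 library, and with library totals (adjusted p = 0.0664).

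**Figure D3:**
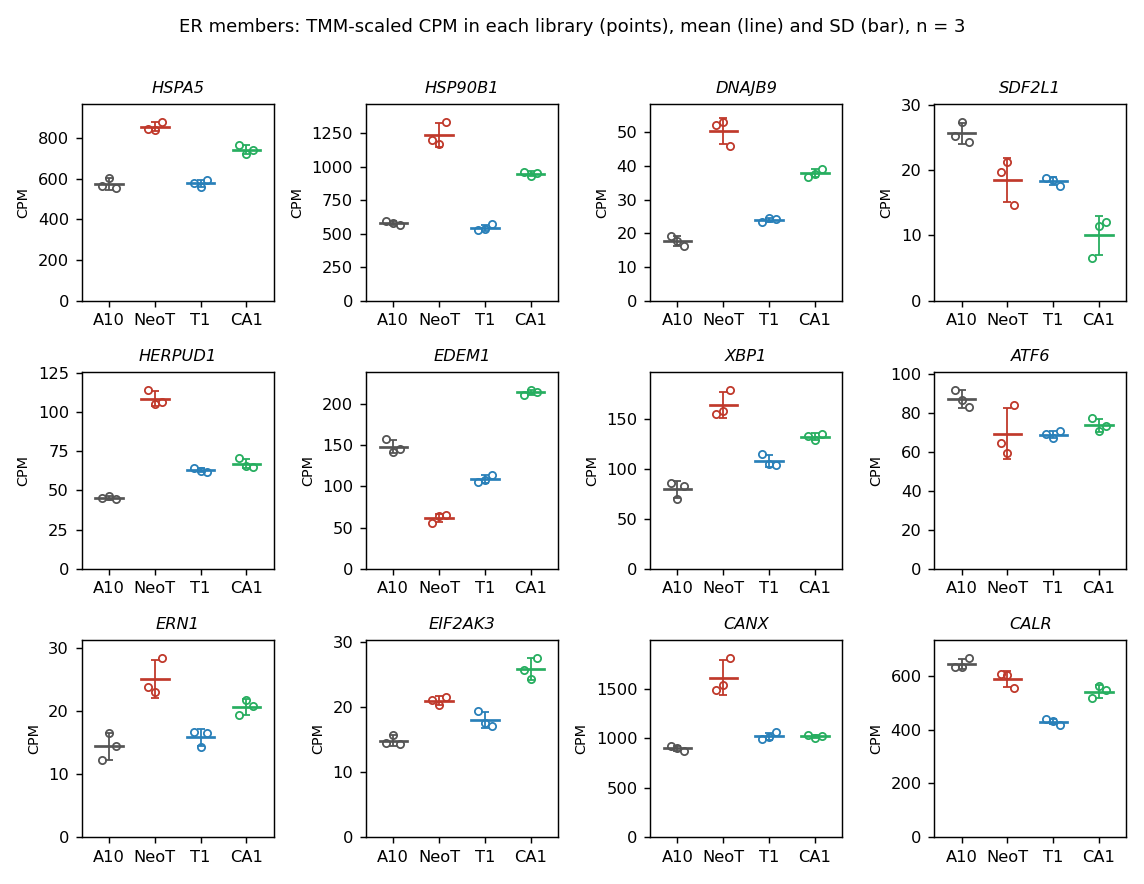
TMM-scaled CPM of 12 ER genes by line, with a point per library, the mean as a line and the SD as a bar (n = 3); every axis starts at 0. NeoT is highest for HSPA5, HSP90B1, DNAJB9, HERPUD1, XBP1, ERN1 and CANX, CA1 for EDEM1 and EIF2AK3, and A10 for SDF2L1, ATF6 and CALR.

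The plot of ER gene levels shows the pattern shared by DNAJB9, HERPUD1 and XBP1, with A10 at the bottom and NeoT at the top, beside the reversed EDEM1. NeoT replicate 3 lies away from the other NeoT points for ATF6, SDF2L1 and CANX.

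Among the cytosolic genes, the stress-inducible ones were low in NeoT. HSPA1A and HSPA1B encode the inducible HSP70, and their starts are 12195 bases apart on chromosome 6 (31815543 to 31817942 and 31827738 to 31830254). HSPA1A measured 203, 247 and 240.1 CPM in A10, 40.0, 47.9 and 46.1 in NeoT, 118, 114 and 105 in T1, and 221, 217 and 214 in CA1. NeoT libraries were the lowest, T1 libraries came next, and A10 and CA1 overlapped above them. HSPA1A was 5.15-fold lower in NeoT than in A10 (log2 -2.36, SE 0.0864, adjusted p = 2.6e-14), the largest difference of any member, and 2.05-fold lower in T1 (log2 -1.03, SE 0.0814, adjusted p = 4.13e-09).

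HSPA1B stood at 191, 217 and 210.5 CPM in A10, 107, 101 and 78.6 in NeoT, 231, 240.4 and 220.0 in T1, and 168, 191 and 168 in CA1. NeoT was again lowest, but T1 was not low. It was 2.15-fold lower in NeoT (log2 -1.11, SE 0.0943, adjusted p = 5.59e-09). The fall in CA1 (adjusted p = 0.0328) was lost without A10 replicate 2 or 3 or CA1 replicate 1 or 3. The genes share 74.28% of the 31-base words of HSPA1A, so how counts are divided between them is uncertain. HSPA1A held 52.7% ± 0.992 of the pair's counts in A10 and 55.3% ± 1.84 in CA1, but 32.1% ± 4.90 in NeoT and 32.8% ± 0.924 in T1. Summed as 1 row, the pair stood at 436 ± 36.9 CPM for A10, 140.3 ± 13.6 for NeoT, 343 ± 15.8 for T1 and 393 ± 13.2 for CA1. The sum was 3.11-fold lower in NeoT (adjusted p = 1.17e-12) and 1.27-fold lower in T1 (adjusted p = 0.000751) than in A10. In CA1 its log2 difference was -0.15 (adjusted p = 0.0824).

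HSPH1 (HSP110), a nucleotide exchange factor of HSP70, lies on chromosome 13, 31134973 to 31162388. It stood at 227, 218 and 204 CPM in A10, 64.4, 64.7 and 84.2 in NeoT, 179, 172 and 183 in T1, and 164, 161 and 153 in CA1. A10 was highest and NeoT lowest, with T1 and CA1 between them. It was 3.04-fold lower in NeoT (log2 -1.61, SE 0.0878, adjusted p = 8.99e-12), 1.36-fold in CA1 and 1.21-fold in T1 (adjusted p = 0.000152 and 0.00948).

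HSPB1 (HSP27), a small heat shock protein that holds unfolding clients, lies on chromosome 7, 76302673 to 76304292. Its levels were 458, 545 and 548 CPM in A10, 193, 184 and 136 in NeoT, 388, 393 and 366 in T1, and 263, 285 and 294 in CA1. The lines did not overlap, in the order A10, T1, CA1 and NeoT. HSPB1 was 3.02-fold lower in NeoT (log2 -1.59, SE 0.106, adjusted p = 5.5e-10), 1.84-fold in CA1 and 1.35-fold in T1 (adjusted p = 9.02e-07 and 0.00195).

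BAG3, a cochaperone that links HSP70 and small heat shock proteins to autophagy, followed the same order of lines. It measured 185, 226 and 215 CPM in A10, 87.1, 85.6 and 72.7 in NeoT, 174, 173 and 164 in T1, and 129.8, 137 and 132 in CA1. Its libraries did not overlap between lines. The fall was 2.55-fold in NeoT (log2 -1.35, SE 0.0815, adjusted p = 3.87e-11), 1.57-fold in CA1 and 1.23-fold in T1 (adjusted p = 7.74e-07 and 0.00433).

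DNAJB1 (HSP40), the J-domain partner of cytosolic HSP70, shared the low value in NeoT but not the high value in A10. It stood at 174, 169.6 and 182 CPM in A10, 81.9, 88.1 and 82.7 in NeoT, 219.9, 212 and 209 in T1, and 243, 249 and 244 in CA1. The order was CA1, T1, A10 and NeoT with no overlap. It was 2.08-fold lower in NeoT (log2 -1.05, SE 0.0597, adjusted p = 1.52e-11) and 1.4- and 1.22-fold higher in CA1 and T1 (adjusted p = 5.87e-07 and 0.000408).

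The cytosolic HSP90 genes parted in NeoT. HSP90AA1, the inducible form, stood at 1435, 1399 and 1342 CPM in A10, 569.9, 569 and 718 in NeoT, 1294, 1315 and 1353 in T1, and 1723, 1666 and 1733 in CA1. NeoT libraries were the lowest and CA1 libraries the highest, with A10 and T1 overlapping. HSP90AA1 was 2.25-fold lower in NeoT (log2 -1.17, SE 0.0747, adjusted p = 8.6e-11) and 1.23-fold higher in CA1 (adjusted p = 0.00162) than in A10. With library totals the HSP90AA1 difference in CA1 was log2 0.0818 and not called (adjusted p = 0.384). HSP90AB1, the constitutive form, stood at 1486 ± 31.3 CPM for A10, 2217 ± 118 for NeoT, 1483 ± 30.2 for T1 and 2558 ± 50.7 for CA1. HSP90AB1 was 1.49-fold higher in NeoT (log2 0.58, SE 0.0532, adjusted p = 1.61e-08) and 1.72-fold higher in CA1 (adjusted p = 2.25e-10). Both genes hold the exact heat shock element shown above.

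HSPA8, the constitutive HSP70, stood at 2134 ± 46.7 CPM for A10, 2340 ± 261 for NeoT, 2828 ± 60.2 for T1 and 1624 ± 27.3 for CA1. T1 was highest and CA1 lowest: it was 1.33-fold higher in T1 (adjusted p = 3.65e-05) and 1.31-fold lower in CA1 (adjusted p = 2.9e-05) than in A10. Its log2 difference in NeoT was 0.13, with an interval of -0.00352 to 0.27. NeoT replicate 3 held 2641 CPM against 2195 and 2183 in the others.

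HSF1, the master transcription factor of the heat shock response, was highest in NeoT, the line with the lowest HSPA1A, HSPH1, HSPB1, BAG3 and DNAJB1. It stood at 136, 164 and 154 CPM in A10, 185, 191 and 174 in NeoT, 129, 127 and 135 in T1, and 153, 163 and 168 in CA1. All NeoT libraries were above those of the other lines, and all T1 libraries below them. It was 1.21-fold higher in NeoT (log2 0.28, SE 0.0721, adjusted p = 0.00212) with TMM, but with library totals HSF1 was at log2 0.0511 there and the call was lost (adjusted p = 0.556). The fall in T1 (log2 -0.21, SE 0.0721, adjusted p = 0.0193) was lost without A10 replicate 2 or 3 or T1 replicate 1 or 2. The difference of CA1 from NeoT (log2 -0.18, adjusted p = 0.0321) was lost without NeoT replicate 1 or 2 or CA1 replicate 1 or 2, and with library totals (adjusted p = 0.0571). HSF1 overlaps DGAT1, HSP90AA1 overlaps WDR20 and DNAJB1 overlaps TECR, and the sources used here do not say that counting used strand, so reads in the shared stretches cannot be assigned with certainty.

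**Figure D4:**
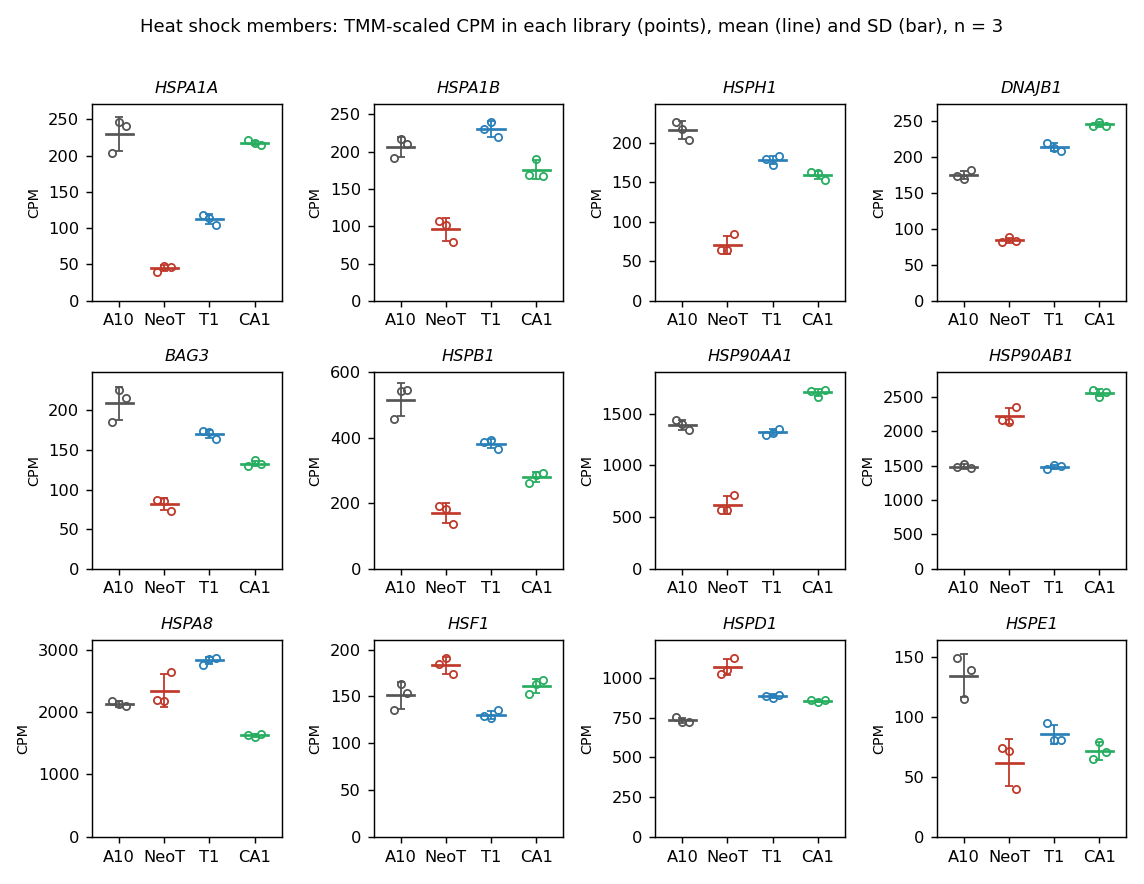
TMM-scaled CPM of the 10 cytosolic heat shock genes and the 2 mitochondrial chaperonin genes by line, with a point per library, the mean as a line and the SD as a bar (n = 3); every axis starts at 0. NeoT is lowest for HSPA1A, HSPA1B, HSPH1, DNAJB1, BAG3, HSPB1, HSP90AA1 and HSPE1 and highest for HSF1 and HSPD1.

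The plot of heat shock levels shows that the 7 cytosolic genes that were low in NeoT had higher levels in T1 and CA1. Against NeoT, 8 of the 10 cytosolic genes were higher in T1, where 35.0% of all genes were, and 8 were higher in CA1, where 33.8% of all genes were. In T1 the exceptions were HSP90AB1 and HSF1 (both lower), and in CA1 HSPA8 and HSF1 (both lower). Summed CPM of the 10 genes was 7262 ± 80.5 in CA1, 7049 ± 93.8 in T1, 6716 ± 106 in A10 and 5908 ± 414 in NeoT.

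The mitochondrial chaperonin subunits HSPD1 (HSP60) and HSPE1 (HSP10) lie head to head on chromosome 2, and in NeoT HSPD1 was higher and HSPE1 lower than in A10. Their outermost starts are 105 bases apart on opposite strands, and a second listed HSPD1 start is 539 bases from that of HSPE1. HSPD1 stood at 734 ± 17.8 CPM for A10, 1069 ± 52.9 for NeoT, 885 ± 11.3 for T1 and 856 ± 6.40 for CA1, and was 1.46-fold higher in NeoT (log2 0.54, SE 0.0534, adjusted p = 3.98e-08), 1.21-fold in T1 and 1.17-fold in CA1 (adjusted p = 0.000312 and 0.00113) than in A10. With library totals the HSPD1 call in CA1 was lost (log2 0.00979, adjusted p = 0.898). HSPE1 stood at 149, 115 and 139 CPM in A10, 74.2, 71.8 and 39.6 in NeoT, 94.7, 80.7 and 80.7 in T1, and 64.7, 79.3 and 70.9 in CA1. A10 libraries were above all others, and NeoT replicate 3 was the lowest of the 12. HSPE1 was 2.16-fold lower in NeoT (log2 -1.11, SE 0.204, adjusted p = 0.000547), with log2 -0.88 without NeoT replicate 3 (adjusted p = 9.04e-07). It was 1.88-fold lower in CA1 (adjusted p = 0.00211). The 1.57-fold fall in T1 (adjusted p = 0.0184) was lost without A10 replicate 1 or 3 or T1 replicate 2 or 3. HSPE1 has a longest transcript of 950 bases, in the short class in which NeoT replicates 3 and 1 stood apart. It shares 45.0% of its 31-base words with other rows, 27.28% with HSPD1 itself, so how counts were divided between the pair is uncertain. With a trend over transcript length removed, an alternative added after seeing the data, its log2 difference in NeoT was -1.04 (adjusted p = 3.48e-06). Summed with the read-through row HSPE1-MOB4 it was -1.12 (adjusted p = 0.000554).

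Between the derived lines, T1 had 9 members higher and 19 lower than NeoT, against 67.4% of all genes called, with a median of -0.40 for the members and 0.0137 for all genes. None of these 28 calls was lost when any 1 library was left out. CA1 had 11 higher and 16 lower than NeoT, against 66.4% of all genes called, 33.8% higher and 32.7% lower (member median -0.17). CA1 had 21 higher and 6 lower than T1, against 62.2% of all genes called (member median 0.27, all genes -0.00945). In CA1 against T1 the 6 lower were SDF2L1, CRELD2, HSPA1B, HSPA8, HSPB1 and BAG3. The largest rises were EDEM1 (1.97-fold), HSPA1A (1.94-fold), HSP90B1 (1.74-fold) and HSP90AB1 (1.73-fold). How counts divide between HSPA1A and HSPA1B is uncertain, and summed with HSPA1B, HSPA1A was 1.15-fold higher in CA1 than in T1 (adjusted p = 0.0296). The rise of ERN1 there (1.31-fold, adjusted p = 0.0114) was lost without T1 replicate 2 (adjusted p = 0.0628) and with library totals (adjusted p = 0.0514), as were those of PDIA3, HYOU1 and DNAJB1 with library totals (adjusted p = 0.289, 0.0687 and 0.171). Of the 34 members, 9 are ER HSP70 and HSP90 chaperones or cochaperones, 5 lectin chaperones or isomerases and 4 ERAD genes. These roles together made up 13 of the 21 rises and 2 of the 6 falls.

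Other genes of the same pathways, from lists by function, are given by counts, with up to 3 per list that had the smallest adjusted p among the lines. Of 22 other ER folding and oxidation genes tested, 13 were higher and 2 lower in NeoT than in A10, 5 and 8 in T1, and 10 and 7 in CA1, with medians of 0.35, -0.0805 and 0.21. That is 59.1% and 9.09% of the list in NeoT, 22.7% and 36.4% in T1, and 45.5% and 31.8% in CA1. All genes had 33.7% higher and 36.7% lower in NeoT, 26.0% and 25.9% in T1, and 34.4% and 36.5% in CA1. QSOX1, a sulfhydryl oxidase, stood at 195 ± 8.62 CPM for A10, 550.1 ± 53.2 for NeoT, 310.2 ± 4.11 for T1 and 408 ± 8.77 for CA1. UGGT2, a relative of the glucosyltransferase that returns misfolded glycoproteins to the lectins, stood at 21.6 ± 1.76 CPM for A10, 72.6 ± 8.14 for NeoT, 26.6 ± 1.16 for T1 and 23.8 ± 2.91 for CA1. CALU, a calcium-binding protein of the ER, was 2.26-fold higher in NeoT and 2.21-fold in CA1 (adjusted p = 4.3e-12 and 6.67e-12).

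Of 19 other ERAD and quality control genes, 7 were higher and 5 lower in NeoT, 3 and 4 in T1, and 10 and 7 in CA1. That is 36.8% and 26.3% of the list in NeoT, 15.8% and 21.1% in T1, and 52.6% and 36.8% in CA1. All genes had 33.7% higher and 36.7% lower in NeoT, 26.0% and 25.9% in T1, and 34.4% and 36.5% in CA1. EDEM2, a mannosidase that starts mannose trimming for ERAD, was 3.68-fold higher in NeoT (adjusted p = 1.62e-13), where its relative EDEM1 was lower; it stood at 27.8 ± 1.69 CPM for A10, 103 ± 3.63 for NeoT, 25.4 ± 0.608 for T1 and 32.2 ± 1.69 for CA1. ERLEC1, a lectin of the ERAD complex, was 2.43-fold higher in CA1 (adjusted p = 2.19e-10), and the ubiquitin-conjugating enzyme UBE2G2 was 2.56-fold lower there (adjusted p = 1.36e-10). Of 23 translocation and N-glycosylation genes, 12 were higher and 4 lower in NeoT, 6 and 3 in T1, and 11 and 6 in CA1. These are 52.2% and 17.4% in NeoT, 26.1% and 13% in T1, and 47.8% and 26.1% in CA1, beside the same shares of all genes. RPN2, a subunit of the oligosaccharyltransferase, was 2.78-fold higher in NeoT (adjusted p = 6.21e-13). SRPRB and SRPR, which encode the signal recognition particle receptor, were 2.05- and 2.2-fold higher in CA1 (adjusted p = 7.23e-11 and 7.24e-11). With library totals the median in NeoT was -0.18 for the other ERAD list and -0.0545 for the translocation list, where it was 0.0462 and 0.17 with TMM, so their directions depend on the scaling. In CA1 the same scaling put the medians of the other ER folding, ERAD and sensor lists at -0.00493, -0.0473 and -0.0111, where TMM gave 0.21, 0.17 and 0.20.

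The genes below PERK, which ATF4 and CHOP control, were the list with the largest CA1 median. Of 12 genes, 8 were higher and 0 lower in CA1 than in A10 (median 1.09, and 0.88 with library totals), 9 and 0 in T1 (median 0.67), and 6 and 4 in NeoT (median 0.39). The share higher was 66.7% in CA1, 75% in T1 and 50% in NeoT, against 34.4%, 26.0% and 33.7% of all genes. In NeoT 33.3% were lower, against 36.7% of all genes, which had 36.5% lower in CA1 and 25.9% in T1. ATF3, a stress-induced transcription factor, stood at 3.21 ± 0.327 CPM for A10, 6.23 ± 0.583 for NeoT, 17.4 ± 1.5 for T1 and 61.2 ± 3.83 for CA1, which is 18.9-fold higher in CA1 than in A10 (adjusted p = 1e-15). DDIT3 (CHOP), a transcription factor linked to cell death under lasting ER stress, stood at 3.55 ± 0.666 CPM for A10, 34.7 ± 7.26 for NeoT, 4.51 ± 0.818 for T1 and 16.2 ± 0.850 for CA1. It was 9.90-fold higher in NeoT and 4.62-fold in CA1 (adjusted p = 6.8e-12 and 2.55e-09). TRIB3, a pseudokinase induced by ATF4 and CHOP, was 2.62-fold higher in CA1 (adjusted p = 4.29e-13), with a log2 difference of -0.12 in NeoT (adjusted p = 0.099). These genes also respond to amino acid shortage and other stresses that signal through ATF4.

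Of 12 relatives and regulators of the sensors, 6 were higher and 3 lower in NeoT, 4 and 2 in T1, and 6 and 3 in CA1. That is 50% and 25% of the list in NeoT, 33.3% and 16.7% in T1, and 50% and 25% in CA1. All genes had 33.7% higher and 36.7% lower in NeoT, 26.0% and 25.9% in T1, and 34.4% and 36.5% in CA1. MAP3K5 (ASK1), a kinase downstream of IRE1, was 1.94-fold higher in NeoT, CREB3L2, a membrane-bound transcription factor related to ATF6, 2.12-fold in CA1, and TMBIM6, an inhibitor of cell death in the ER membrane, 1.59-fold in CA1 (adjusted p = 1.57e-08, 2.57e-09 and 2.37e-08).

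Of 35 other cytosolic chaperones and cochaperones, 12 were higher and 17 lower in NeoT, 9 and 13 in T1, and 8 and 17 in CA1, with medians of -0.27, -0.0409 and -0.18. That is 34.3% and 48.6% of the list in NeoT, 25.7% and 37.1% in T1, and 22.9% and 48.6% in CA1. All genes had 33.7% higher and 36.7% lower in NeoT, 26.0% and 25.9% in T1, and 34.4% and 36.5% in CA1. FKBP5, an HSP90 cochaperone of steroid receptors that is itself induced by glucocorticoids, stood at 624 ± 22.1 CPM for A10, 1808 ± 92.1 for NeoT, 408 ± 5.62 for T1 and 12 ± 1.41 for CA1. Its fall in CA1 was 52.2-fold against A10 (adjusted p = 5.12e-19). BAG2, an inhibitor of HSP70-linked ubiquitination, stood at 19.7 ± 1.75 CPM for A10, 0.893 ± 0.133 for NeoT, 0.512 ± 0.154 for T1 and 18.5 ± 1.49 for CA1, and was 21.8-fold lower in NeoT and 38.9-fold lower in T1 (adjusted p = 2.35e-13 and 1.03e-13).

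Of 14 subunits of the cytosolic chaperonin TRiC and of prefoldin, 5 were higher and 5 lower in NeoT, 1 and 5 in T1, and 2 and 4 in CA1. That is 35.7% and 35.7% of the list in NeoT, 7.14% and 35.7% in T1, and 14.3% and 28.6% in CA1. All genes had 33.7% higher and 36.7% lower in NeoT, 26.0% and 25.9% in T1, and 34.4% and 36.5% in CA1. The subunits did not move together: CCT3 was 1.88-fold lower and CCT4 1.65-fold higher in NeoT (adjusted p = 3.96e-11 and 3.62e-08), and the prefoldin gene PFDN4 was 2.42-fold higher. Of 15 other mitochondrial chaperone and protease genes, 8 were higher and 4 lower in NeoT, 4 and 1 in T1, and 4 and 5 in CA1. These are 53.3% and 26.7% in NeoT, 26.7% and 6.67% in T1, and 26.7% and 33.3% in CA1, beside the same shares of all genes. TRAP1, the mitochondrial HSP90, was 2.07-fold higher in NeoT (adjusted p = 2.08e-11). The mitochondrial stress factor ATF5 was 3.25-fold lower in CA1 (adjusted p = 3.66e-11), and GRPEL2, an exchange factor of mitochondrial HSP70, was 1.58-fold lower in NeoT (adjusted p = 1.9e-06). With library totals the median of this list in NeoT was -0.00856, where it was 0.22 with TMM.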

How the data were processed

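RNA from 4 MCF10A-series lines, 3 libraries each, was sequenced after DNase treatment and NEBNext Ultra library preparation, per the labels' protocols. The deposited values are estimated counts per gene made by the authors with Salmon, 1 table for all 12 libraries, and 10.1% of values were not whole; they were rounded, which moved no value by more than 0.5. The submitters' processing notes list GRCh38 and limma, with no role given. The annotation and tool versions are not given in the sources used here, nor is whether counting used strand. The table holds 29744 rows, 10297 of them at 0 in every library.

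Genes kept by filterByExpr (14417) were tested in edgeR 4.0.16 (R 4.3.3) with TMM scaling and the robust quasi-likelihood test, two-sided. All 12 libraries shared 1 estimate of the spread (8 residual degrees of freedom). The 6 pairs of lines and the difference among the 4 lines were tested, each with Benjamini-Hochberg adjustment over all genes. The code was tested on simulated counts. The p-values measure the spread between these libraries, whose independence as cultures is not described. Depth per library is given with the results; it limits precision most for genes of few counts. Alternatives were RLE, upper-quartile and library-total scaling, no filter and a filter at 1 CPM in 3 libraries, DESeq2 1.42.0, limma-voom (limma 3.58.1), a test against a 1.5-fold change, the 6 libraries of a pair alone, a replicate block, removal of rRNA rows and left-out libraries. Removal of a length trend was added after seeing the data.

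The members and the other gene lists were chosen with earlier results of these data known. Values per library are given for members past 2-fold against A10, for HSPA5, and for the sensors and HSF1; from each other list, up to 3 genes with the smallest adjusted p among the lines are named, and some items are not reported here. Of 156 genes on those lists 155 had a row. Promoters are from RefSeq (GRCh38.p14) and were matched by symbol. Figures and summaries used Python 3.11.15, pandas 2.3.3, numpy 2.4.6 and matplotlib 3.10.9.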

Additional observations from a re-analysis of the deposited data

How the results depend on the processing

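Of 204 results (34 members in 6 pairs of lines), the replicate block changed 2 calls: CALR in NeoT against A10 (log2 -0.133, adjusted p = 0.0623) and PDIA6 in CA1 against A10 (log2 0.129, adjusted p = 0.0538) were lost. With the block the members called were 28 in NeoT, 23 in T1 and 28 in CA1 against A10, 28 in T1 and 27 in CA1 against NeoT, and 27 in CA1 against T1. Of all 14417 genes, 4736 were then higher and 5245 lower in NeoT against A10. In T1 against A10 there were 3637 and 3632, and in CA1 4857 and 5202. Against NeoT there were 4960 and 4581 in T1, and 4823 and 4620 in CA1. For CA1 against T1 there were 4299 and 4500. Correlations of same-numbered deviations ran from -0.192 to 0.185 over 18 pairs, 4 of them over 0.1, and 5 of 12 libraries were closest to their own number. A clear pairing by number was not seen across the lines, and a pairing of only some libraries was not tested.

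Against a 1.5-fold change, which by construction asks more of each gene, the members called were 15 in NeoT against A10 (6 higher), 1 in T1 against A10 (0 higher, 1 lower), 8 in CA1 against A10 (5 higher, 3 lower), 14 in T1 against NeoT (6 lower), 8 in CA1 against NeoT (6 higher, 2 lower) and 5 in CA1 against T1 (4 higher, 1 lower). Of all 14417 genes, that test called 2633 higher and 3204 lower in NeoT against A10. In T1 against A10 it called 1511 and 1506, and in CA1 2758 and 3015. Against NeoT it called 2879 and 2315 in T1, and 2786 and 2449 in CA1. For CA1 against T1 it called 1792 and 2072. With library totals the member median was -0.0214 in NeoT, -0.228 in T1 and -0.056 in CA1 against A10, -0.285 in T1 against NeoT, and 0.173 in CA1 against T1, and CANX (-0.0288), PDIA3 (-0.207) and PDIA6 (-0.0832) changed sign in CA1 against A10. The CA1 median against A10 was 0.123 with upper-quartile scaling, 0.136 without a filter and 0.196 with the length trend removed, which also gave 0.301 for CA1 against T1; the cause was not tested. Removing the length trend added 7 calls and ended 2, those of CALR in NeoT (adjusted p = 0.0854) and HSPA1B in CA1 (adjusted p = 0.0798) against A10.

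Leaving out 1 library at a time gave 27 to 30 members called in NeoT, 17 to 27 in T1 and 25 to 29 in CA1 against A10, 28 to 29 in T1 and 25 to 28 in CA1 against NeoT, and 26 to 30 in CA1 against T1, with 33 to 34 differing among the lines. Over all genes tested, 4531 to 4896 were then called higher and 5041 to 5471 lower in NeoT against A10. The ranges were 3359 to 4198 and 3330 to 4261 in T1, and 4673 to 5274 and 4997 to 5582 in CA1. Against NeoT they were 4776 to 5242 and 4358 to 4777 in T1, and 4598 to 5077 and 4357 to 4855 in CA1. For CA1 against T1 they were 3990 to 4766 and 4195 to 5007. In DESeq2 the members called in those pairs were 30, 25, 29, 30, 28 and 27. Among all 14417 genes DESeq2 called 4957 higher and 5277 lower in NeoT against A10. In T1 against A10 it called 3842 and 3833, and in CA1 5052 and 5263. Against NeoT it called 5040 and 4812 in T1, and 4905 and 4791 in CA1. For CA1 against T1 it called 4508 and 4621.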
